A study of Homo sapiens with 12 samples.

Results

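Inflammatory cytokines and chemokines were followed through 10 genes: the chemokines CXCL8, CXCL1, CXCL2, CXCL3, CCL2 and CCL20 and the cytokines IL6, LIF, IL1A and IL1B. They were listed by symbol and found through the array's annotation, out of 19775 gene symbols on the array. A gene was represented by the probe set (a set of short probes for 1 transcript region) with the highest mean over the 12 arrays, and was called not detected where every array was under 5 log2 units. By that limit 6 of the 10 were detected.

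Cytokines and chemokines are secreted signals that call in and instruct immune cells. In the kidney, injured proximal tubule cells are a known source of them. CXCL8, CXCL1, CXCL2 and CXCL3 attract neutrophils through the receptors CXCR1 and CXCR2, CCL2 attracts monocytes through CCR2, and CCL20 attracts lymphocytes and dendritic cells through CCR6. IL1A and IL1B act through IL1R1 and the adaptor MYD88 to switch on NF-kappaB, the transcription factor that many of these genes share, while IL6 and LIF signal through the receptor subunit IL6ST to STAT3.

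The cells were HK-2, an immortalised line of human renal proximal tubule epithelium, exposed to an agent labelled Ra or to the control vehicle for 12 h or 48 h. Each of the 4 groups (control 12 h, Ra 12 h, control 48 h and Ra 48 h) had 3 samples that the labels call biological replicates. What Ra is, and at which dose it was used, is not given in the sources used here. Cells of all groups were plated a day before treatment and grown in medium that held epidermal growth factor, insulin, transferrin, selenite and the glucocorticoid hydrocortisone. Whether the replicates came from separate cultures or days was not stated, so p-values measure the spread between these samples.

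Values are GCRMA log2 expression values of single arrays, in which 1 unit is a doubling, and the number of arrays limits the precision. The spread between replicates was uneven: the median gene's SD was 0.124 in control cells at 12 h, 0.122 with Ra at 12 h, 0.219 in control cells at 48 h and 0.431 with Ra at 48 h. Ra 48 h replicate 2 stood apart, with a median over the 10050 tested genes of 7.95, against 8.66 to 8.79 on the other 11 arrays. For the members, differences between Ra and control at 48 h are given with and without it. Of the epithelial and kidney markers, EPCAM, KRT8, KRT18, KRT19 and PAX8 all were at 10.34 or higher on every array. PAX2, of the same list, ran from 2.57 to 2.64. The proximal tubule brush border and transport genes GGT1, ANPEP, LRP2 and AQP1 also stayed under 5 throughout. All 7 measured immune cell markers were under 5 on every array (highest 3.29, PTPRC), and their mean level per array was 2.38 to 2.43 at 12 h in control cells, 2.39 to 2.41 at 12 h with Ra, 2.39 to 2.42 at 48 h in control cells and 2.38 to 2.54 at 48 h with Ra. All 5 endothelial markers were also under 5, and of the fibroblast markers COL1A1, DCN and LUM reached it, with 0 of the 3 called at either time. The epithelial cadherin CDH1 was lower with Ra than in control cells at 48 h, with means of 6.015 and 7.497 (limma adjusted p = 0.0419, 12 arrays). At 12 h its means were 6.206 in control cells and 6.472 with Ra, so the control group at 48 h was the one that stood highest. In limma's fit of the 6 arrays of 48 h alone 0% of all genes passed, CDH1 included.

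The detected genes were the neutrophil attractants CXCL8, CXCL2 and CXCL3, the lymphocyte attractant CCL20, and the IL6 family cytokines IL6 and LIF. CXCL1, CCL2, IL1A and IL1B were not. The single CXCL1 probe set ran from 2.46 to 2.59 over the 12 arrays and the single CCL2 probe set from 2.38 to 2.47. Both probe sets of IL1A stayed between 2.31 and 2.59. IL1B, the secreted interleukin that needs cleavage by caspase-1, has a pair of probe sets. One ran from 2.20 to 2.74 and the other from 2.94 to 4.52. Both had their highest value on Ra 48 h replicate 1, where the second read 4.52 against 3.28 or less on the other 11 arrays. That value was still under the limit for detection, and Ra 48 h replicates 2 and 3 read 3.22 and 3.00 there.

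The probe sets of 1 gene did not always tell the same story. Both CXCL8 probe sets were high on all arrays, the one that stands for the gene (type _s_at) from 12.13 to 13.65 and the other (type _x_at) from 12.14 to 13.44. CXCL2 had 3 probe sets, and only one of type _x_at was detected, at 8.41 to 10.81. The other two stayed at 3.02 to 3.49 and 2.43 to 2.52. The ending _x_at marks probes that can bind transcripts of related genes, so whether it reads CXCL2 alone or also its close relatives cannot be told from these arrays. What is written below of CXCL2 is what that probe set measured. CXCL3, on its only probe set, lay from 4.73 to 5.82, at the limit for detection. CCL20, IL6 and LIF each had 1 probe set.

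**Figure D1:**
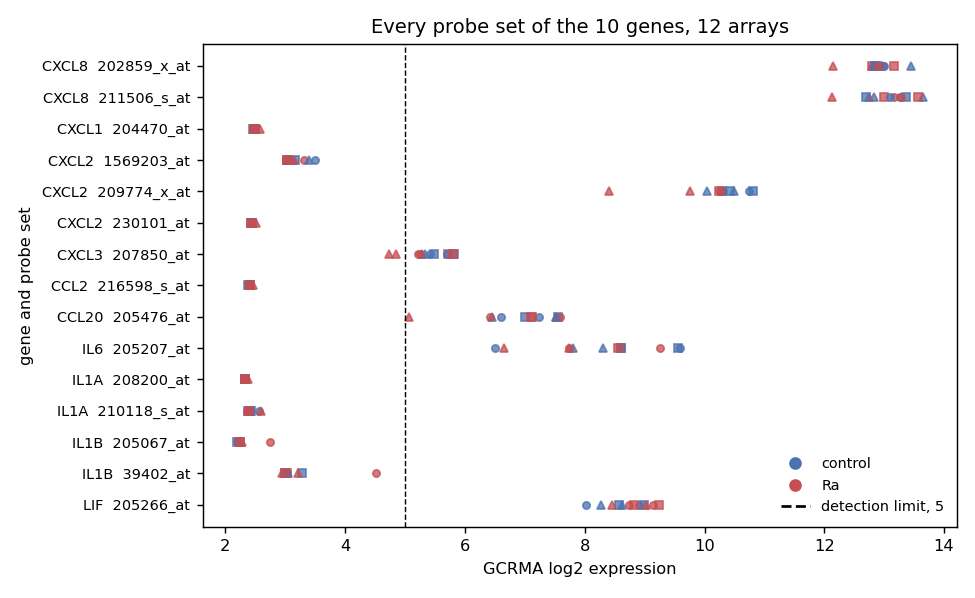
GCRMA log2 expression (x axis) of all 15 probe sets of the 10 genes (y axis), a point for each of 12 arrays, blue for control and red for Ra, with circles, triangles and squares for replicates 1, 2 and 3. The dashed line is the limit for detection at 5 log2 units: 7 probe sets, of 6 genes, reach it.

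The stretches of DNA below, just upstream of the transcript starts, are shown because the CXC chemokine genes share a kappaB-like motif, including CXCL1, which was not detected. The motif GGNNTTTCC was searched on both strands of the 250 bases before each start in RefSeq's promoter windows (GRCh38.p14), and capitals mark the match, read on the gene's strand. In CCL20 the match is on the opposite strand.
CXCL8: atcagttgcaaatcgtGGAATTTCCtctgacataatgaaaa
CXCL1: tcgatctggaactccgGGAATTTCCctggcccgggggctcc
CXCL2: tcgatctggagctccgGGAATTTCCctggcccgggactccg
CXCL3: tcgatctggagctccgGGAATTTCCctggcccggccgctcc
CCL20: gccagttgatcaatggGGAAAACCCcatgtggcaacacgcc
IL6: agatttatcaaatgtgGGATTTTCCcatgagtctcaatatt
These stretches lie at chr4:73740462-73740502 (+ strand) for CXCL8, chr4:73869299-73869339 (+) for CXCL1, chr4:74099248-74099288 (-) for CXCL2, chr4:74038743-74038783 (-) for CXCL3, chr2:227813747-227813787 (+) for CCL20 and chr7:22727112-22727152 (+) for IL6. The match began 91 bases before the transcript start in CXCL8, 78 in CXCL1, 77 in CXCL2, 78 in CXCL3, 79 in CCL20 and 72 in IL6. CXCL1, CXCL2 and CXCL3 each held another match, GGGCTTTCC, 53 bases before the start. Of the 27305 genes with a window of that length, 5.48% held GGNNTTTCC. Windows of IL1A and IL1B held no match. Windows for CCL2 and LIF were not used here. Over the 250 bases, CXCL1 was 81.4% identical to CXCL3 and 70.1% to CXCL2, and CXCL8 was 43.9% identical to CXCL1. A match is a description of the letters and says nothing of whether NF-kappaB bound there.

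The first question was whether Ra changed the cytokine genes within 12 h. In bulk RNA of this kind, fewer cells that make a transcript and less of it per cell cannot be told apart. Limma's fit of all 12 arrays gives each gene 1 spread for the 4 groups and adjusts p-values over 10050 genes. In it 0 of the 6 detected members passed an adjusted p of 0.05, and 0.0299% of all genes did. An unadjusted p under 0.05 was found for 0 of the 6 and for 751 of all 10050 genes. In limma's fit of the 6 arrays of 12 h alone, where 13.6% of all genes passed, again 0 of 6 did, with adjusted p from 0.247 to 0.668. The groups overlapped for all 6 members, while they did not overlap for 35.3% of all genes. The median difference of the 6 was -0.17 log2 units, against 0.01 for all genes.

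CXCL8 read 13.26, 12.83 and 13.36 in control cells and 13.17, 12.75 and 13.0 with Ra at 12 h, replicates 1 to 3 in order. The highest array was a control and the lowest a Ra array, with the rest interleaved. The difference was -0.18 ± 0.32 log2 units (SE, n = 3 per group; 95% interval -0.88 to 0.53; limma adjusted p = 0.989). CXCL2 read 10.75, 10.04 and 10.81 in control cells and 10.27, 9.76 and 10.30 with Ra, so that replicate 2 was the low one of both groups. Its difference was -0.42 ± 0.41 (interval -1.31 to 0.46; limma adjusted p = 0.925). CXCL3, at the limit for detection, gave 5.41, 5.28 and 5.49 against 5.22, 4.73 and 5.73 with Ra, which held both the highest and the lowest value.

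CCL20 read 7.23, 6.45 and 7.55 in control cells and 7.58, 7.52 and 7.11 with Ra at 12 h. Here the means ran the other way, by 0.33 ± 0.45 log2 units (interval -0.65 to 1.31; limma adjusted p = 0.974), with control replicate 2 the lowest of the 6 arrays. IL6 read 9.59, 8.31 and 9.56 in control cells and 9.25, 7.74 and 8.60 with Ra. The difference of -0.62 ± 0.60 (interval -1.92 to 0.68; limma adjusted p = 0.925) was the widest of the 6, and so was its interval. LIF read 8.91, 8.62 and 8.99 against 9.15, 9.02 and 8.82 with Ra, a difference of 0.16 ± 0.23 (interval -0.34 to 0.66).

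**Figure D2:**
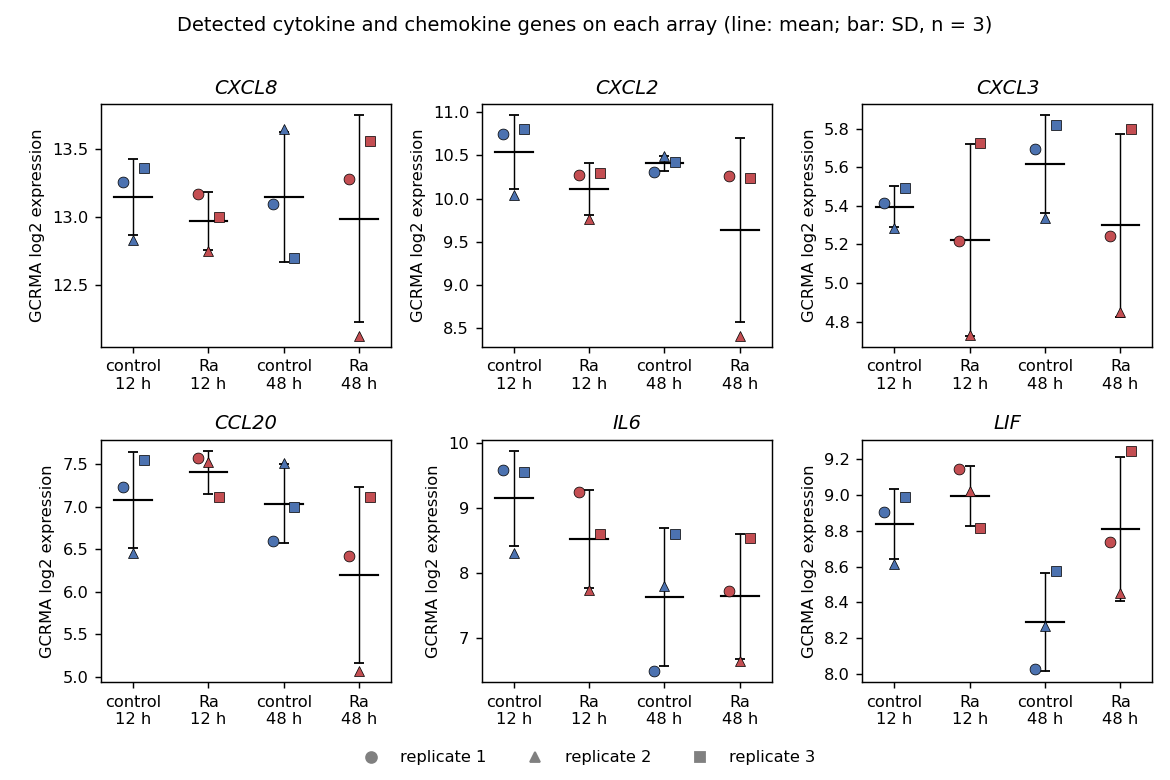
GCRMA log2 expression (y axis) of the 6 detected genes on each array by group (x axis), in blue for control and red for Ra, with circles, triangles and squares for replicates 1, 2 and 3, a line at the mean and a bar for the SD (n = 3). At 12 h replicate 2 is the low array of both groups for CXCL8, CXCL2, CXCL3 and IL6, and at 48 h Ra replicate 2 is the lowest of its group for all 6.

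At 12 h these genes varied between replicates more than most. The SD within groups was 0.744 log2 units for IL6, above that of 99.7% of all tested genes, and 0.439 for CCL20 (97.7%), 0.372 for CXCL2 (95.6%), 0.359 for CXCL3 (95.1%) and 0.247 for CXCL8 (84.5%). LIF was closest to the median gene (0.137), with 0.182. Over all genes, the deviations of same-numbered Ra and control arrays from their group means correlated at 12 h with 0.182, 0.421 and 0.344. Those of differently numbered arrays correlated with -0.00399 or less. Deviations within a group cancel out, so positive values for same numbers make the others negative on average, and the contrast is no separate evidence. The numbers were treated as pairs at that time.

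Within those pairs IL6 was lower with Ra in 3 of 3, by -0.34, -0.57 and -0.96 log2 units, and CXCL2 in 3 of 3, by -0.48, -0.28 and -0.51. CXCL8 was also lower in 3 of 3 on the probe set that stands for it (-0.08, -0.08 and -0.36). The other CXCL8 probe set read 12.93, 12.87 and 12.9 in control cells and 12.98, 12.79 and 12.8 with Ra. On that one the pair of replicate 1 ran the other way. CXCL3 (-0.20, -0.55 and 0.23), CCL20 (0.35, 1.07 and -0.44) and LIF (0.24, 0.41 and -0.17) each had a pair that ran the other way. The share of all genes that ran 1 way in 3 of 3 pairs was not counted, so 3 of 3 only describes these arrays. With the replicate number as a block in limma's fit of the 6 arrays, a setting chosen after the data were seen, CXCL2 fell (-0.42 ± 0.08, SE; adjusted p = 0.009) and IL6 fell (-0.62 ± 0.13; adjusted p = 0.0137), where 23.4% of all genes passed. In limma's fit of all 12 arrays the block did not bring either past the test, with adjusted p = 0.821 for CXCL2 and 0.711 for IL6 when the numbers were blocked within each time. IL6 and CXCL2 at 12 h passed in no other setting that was run.

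**Figure D3:**
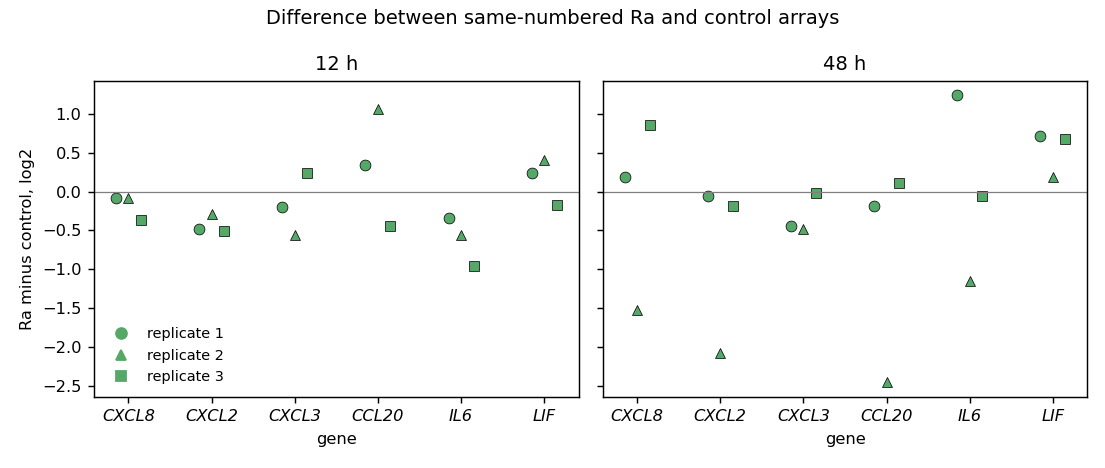
Log2 difference between the Ra and the control array of 1 replicate number (y axis) for the 6 detected genes (x axis) at 12 h and 48 h, with circles, triangles and squares for replicates 1, 2 and 3. At 12 h all 3 differences are below 0 for CXCL8 (on the probe set that stands for it), CXCL2 and IL6. At 48 h replicate 2 has the lowest difference of the 3 for all 6 genes.

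The second question was whether the genes differed after 48 h. In limma's fit of 12 arrays 0 of the 6 members passed, while 12.6% of all genes passed. The unadjusted p was under 0.05 for 1 of the 6, LIF, and for 3352 of all 10050 genes. In limma's fit of the 6 arrays of 48 h, 0 members and 0% of all genes passed. There 0 members and 1748 of all 10050 genes had an unadjusted p under 0.05. The median difference of the 6 members was -0.24 log2 units against -0.20 for all genes. CXCL2 was the 1 member whose groups did not overlap, as was the case for 24% of all genes.

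LIF read 8.03, 8.27 and 8.57 in control cells and 8.74, 8.45 and 9.25 with Ra at 48 h. Ra replicates 1 and 3 lay above all 3 controls and Ra replicate 2 among them. The difference of 0.52 ± 0.23 log2 units (SE, n = 3 per group; 1.44-fold; interval 0.02 to 1.02) had a limma adjusted p of 0.133, and 0.391 in the fit of 6 arrays. Ra 48 h replicate 2 was low for most genes. Relative to each array's own median over all tested genes, LIF stood at -0.73, -0.48 and -0.13 in control cells and at -0.05, 0.50 and 0.54 with Ra, and the groups then did not overlap. Before centring, the groups did not overlap for 24% of all genes, and that share was not counted after centring. LIF rose in limma's fit on these centred values (0.77 ± 0.19; adjusted p = 0.0107), after quantile normalization (0.77 ± 0.19; 0.0124), with array weights (0.89 ± 0.15; 0.000376) and without Ra 48 h replicate 2 (0.70 ± 0.21; 0.039), settings in which 28.5%, 30%, 51.8% and 19.3% of all genes passed. Without Ra 48 h replicate 3 the LIF difference was 0.31 ± 0.22 (limma adjusted p = 0.337).

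CXCL2 read 10.31, 10.49 and 10.42 in control cells and 10.26, 8.41 and 10.24 with Ra at 48 h. All 3 Ra arrays were below the controls, and 2 of them by little. The difference was -0.77 ± 0.41 log2 units (interval -1.66 to 0.11; limma adjusted p = 0.203) and was -0.16 ± 0.23 without Ra 48 h replicate 2. CCL20 read 6.60, 7.52 and 7.00 in control cells and 6.42, 5.06 and 7.11 with Ra, with a difference of -0.84 ± 0.45 (interval -1.82 to 0.14; limma adjusted p = 0.211) that became -0.27 ± 0.36 without that array. CXCL8 read 13.10, 13.65 and 12.70 in control cells and 13.28, 12.13 and 13.56 with Ra. Its difference of -0.16 ± 0.32 (interval -0.86 to 0.54) turned to 0.27 ± 0.25 without the same array, and neither passed. CXCL3 gave 5.69, 5.33 and 5.82 against 5.25, 4.85 and 5.80, a difference of -0.32 ± 0.29 (interval -0.94 to 0.31) that became -0.094 ± 0.28 without that array.

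IL6 read 6.50, 7.80 and 8.61 in control cells at 48 h and 7.73, 6.65 and 8.55 with Ra. Each group spanned about the same range, and the difference was 0.01 ± 0.60 log2 units (interval -1.29 to 1.31; limma adjusted p = 0.994). It became 0.51 ± 0.63 without Ra 48 h replicate 2. At 48 h IL6 again varied more than 97.5% of genes (SD 1.01, against 0.372 for the median gene), and CCL20 more than 93.7%, while CXCL3 (51.9%) and LIF (44.2%) were near the median gene. On Ra 48 h replicate 2 the 6 members lay below the mean of the other two Ra arrays by amounts that ran from -0.54 (LIF) to -1.84 (CXCL2), where the median of all tested genes was -0.65. The part of that array's low level in these results was not tested beyond leaving it out, centring and weighting.

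**Figure D4:**
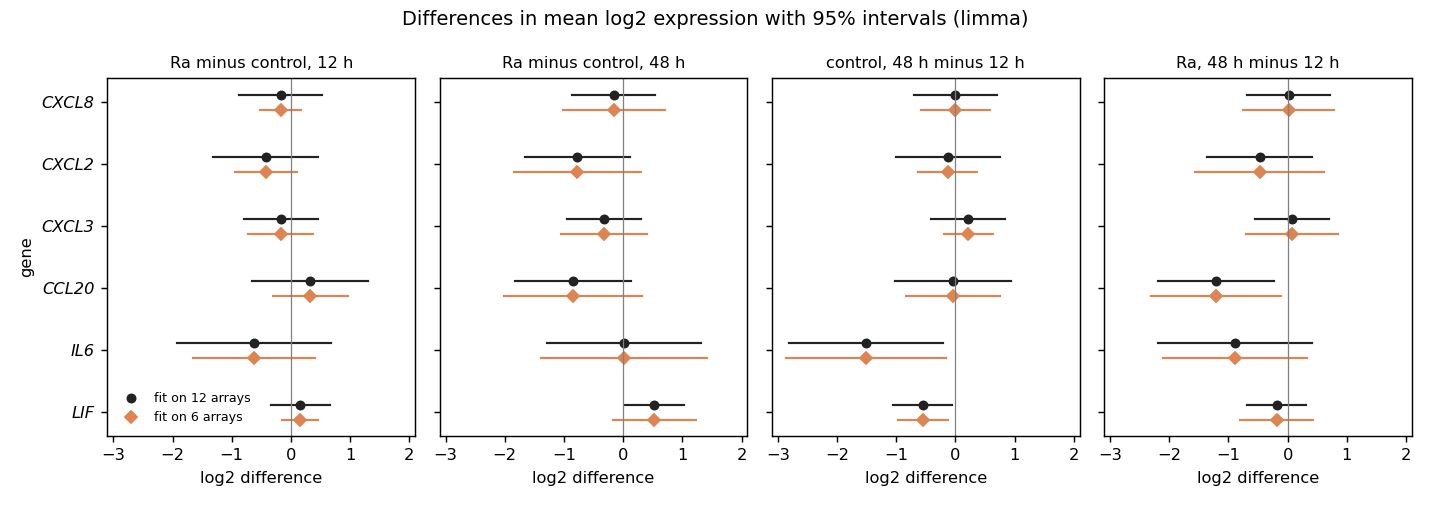
Differences in mean log2 expression (x axis) with 95% intervals for the 6 detected genes (y axis) in 4 comparisons, from limma's fit on all 12 arrays (black circles) and on the 6 arrays of the groups compared (orange diamonds). No Ra against control interval clears 0 in both fits, and LIF at 48 h does so in the fit on 12 arrays alone (0.02 to 1.02).

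The design also allows the times to be compared within a treatment, with the same arrays as above, so these comparisons are not separate evidence. In control cells 0 of the 6 members passed limma's test between 12 h and 48 h in the fit of 12 arrays, where 19.5% of all genes passed. The unadjusted p was under 0.05 for 2 of the 6, IL6 and LIF, and for 3400 of all 10050 genes. IL6 was lower at 48 h, at 6.50, 7.80 and 8.61 against 9.59, 8.31 and 9.56. Only control 48 h replicate 3 reached into the range of the 12 h arrays. The difference was -1.51 ± 0.60 log2 units (interval -2.81 to -0.21; limma adjusted p = 0.0955), and 0.0818 in the fit of 6 arrays. LIF was lower at 48 h on all 3 control arrays, by -0.55 ± 0.23 (interval -1.05 to -0.05; limma adjusted p = 0.114), and 0.0539 in the fit of 6 arrays. In that fit, 0 of 6 members and 33.2% of all genes passed. Groups that did not overlap, as for LIF here, made up 50.8% of all genes.

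Both differences passed limma's test under the settings that bring arrays to a common level or weight them. IL6 had an adjusted p of 0.0373 after centring, 0.0402 after quantile normalization and 0.00711 with array weights, and LIF 0.0332, 0.0325 and 0.00108, where 35.4%, 36.9% and 61% of all genes passed. IL6 also passed without control 48 h replicate 3 (adjusted p = 0.0365; 22.8% of all genes), and LIF without Ra 48 h replicate 2 (adjusted p = 0.0361; 40.7%). Without control 48 h replicate 1 the IL6 difference was -0.94 ± 0.59 (adjusted p = 0.346). CXCL8 (0.00 ± 0.32), CCL20 (-0.04 ± 0.45), CXCL2 (-0.13 ± 0.41) and CXCL3 (0.22 ± 0.29) had differences well inside their errors.

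In Ra-treated cells 0 of the 6 passed limma's test between the times, and 0% of all genes passed in either fit. In each fit 1 of the 6, CCL20, had an unadjusted p under 0.05. So had 1562 of all 10050 genes on 12 arrays and 843 on 6 arrays. CCL20 read 7.58, 7.52 and 7.115 at 12 h and 6.42, 5.06 and 7.111 at 48 h, so that the groups just failed to meet, as for 19.5% of all genes. Its difference was -1.21 ± 0.45 log2 units (limma adjusted p = 0.255), and -0.64 without Ra 48 h replicate 2. For the difference between the effects of Ra at the 2 times 0 of the 6 passed, and 0.0199% of all genes passed. The unadjusted p was under 0.05 for 0 of the 6 and for 1933 of all 10050 genes. For CCL20 it was -1.17 ± 0.64 (interval -2.55 to 0.22; limma adjusted p = 0.334), and -0.60 ± 0.48 without Ra 48 h replicate 2. For IL6 it was 0.63 ± 0.85, and 1.13 ± 0.84 without that array. LIF passed there with array weights alone (0.69 ± 0.19; adjusted p = 0.0113; 44.4% of all genes), a setting that gave Ra 48 h replicate 2 a weight of 0.0512 and control 48 h replicate 2 a weight of 5.09.

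By means, IL6 stood at 9.15 ± 0.73 in control cells and 8.53 ± 0.76 with Ra at 12 h, and at 7.64 ± 1.07 and 7.64 ± 0.95 at 48 h (SD, n = 3), so both 12 h means lay above both 48 h means, with neighbours in that order within their spread. LIF was lowest in control cells at 48 h (8.29 ± 0.27), followed by Ra 48 h (8.81 ± 0.40), control 12 h (8.84 ± 0.20) and Ra 12 h (9.00 ± 0.17), where the last 3 groups lie within their spread. CCL20 was lowest with Ra at 48 h (6.20 ± 1.04), and the other 3 groups, at 7.04 ± 0.46, 7.08 ± 0.57 and 7.41 ± 0.25, lie within their spread. The Ra 48 h arrays ran from 5.06, on replicate 2, to 7.11 and overlapped the control arrays of each time. CXCL8 kept between 12.97 and 13.15 in all 4 groups.

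The genes whose values followed a member most closely over the 12 arrays were found by the root mean square difference after each gene was centred on its own mean. For IL6, whose own root mean square about its mean was 0.966 log2 units, they were CLEC4E, a receptor of the innate immune system (0.321), WNT5B, a Wnt ligand (0.438), and MYL9, a myosin light chain (0.453), against a median of 0.937 over all genes. For CCL20 (0.693) they were OTUD6B (0.262), RFX7 (0.288) and ATL1 (0.302), and for CXCL2 (0.596) TARS3 (0.112), ORC2 (0.168) and SLC25A12 (0.19). All 12 arrays enter these values, so the low array Ra 48 h replicate 2 is part of the likeness.

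The other genes of cytokine signalling were taken from 6 lists of 126 genes, of which 74 were tested. At 12 h 0 of the 74 passed limma's fit of 12 arrays, and in the fit of 6 arrays 7 rose and 4 fell, or 14.9%, against 13.6% of all genes. Among receptors and adaptors, 2 of 17 rose and 4 fell in that fit. STAT3, the transcription factor that IL6 and LIF activate, fell by 0.43 ± 0.14 log2 units (here and for the next genes with the SE of the 12-array fit; adjusted p = 0.0107 on 6 arrays, 0.465 on 12). IL6R, the receptor subunit that binds IL6, fell by 0.69 ± 0.24 (0.0452 and 0.482). IRAK2, a kinase of the IL1 receptor pathway, rose by 0.97 ± 0.36 (0.0135 and 0.539), and TLR2, a receptor for bacterial lipoproteins, by 0.46 ± 0.33 (0.0479 and 0.842). STAT3 and IRAK2 kept their calls when each of the 6 arrays was left out in turn, and IL6R and TLR2 kept them in 0 of 6. Of 19 NF-kappaB pathway genes 1 rose, the inhibitor TNIP1 (0.51 ± 0.22; adjusted p = 0.0336 on 6 arrays), which kept its call in 1 of 6. Of 13 other NF-kappaB targets 2 rose, the protease PLAU (0.50 ± 0.25; 0.0112) and the mitochondrial superoxide dismutase SOD2 (0.51 ± 0.40; 0.0273), kept in 6 and 2 of 6. Of 8 other cytokines 1 rose, IL7 (0.79 ± 0.40; 0.0112), kept in 6 of 6, and of 14 genes of mRNA decay and stress kinases 1 rose, ZFP36L1 (0.38 ± 0.20; 0.0487), kept in 1 of 6. The 3 tested chemokines CXCL5, CCL28 and CX3CL1 did not pass.

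At 48 h 3 of the 74 rose and 4 fell in limma's fit of 12 arrays, or 9.46%, against 12.6% of all genes, and 0 passed in the fit of 6 arrays. By list, 1 of 8 other cytokines rose, 1 of 19 NF-kappaB genes rose and 1 fell, 2 of 13 NF-kappaB targets fell, and 1 of 14 mRNA decay and stress kinase genes rose and 1 fell. TNFSF10, the death ligand TRAIL, rose from a mean of 10.96 in control cells to 12.46 (SE of the difference 0.29; limma adjusted p = 0.0129), which compares with 12.02 and 12.17 in the control and Ra groups at 12 h. It lost its call without control 48 h replicate 2 (0.068). FOSL1, a subunit of the transcription factor AP-1, rose by 1.91 ± 0.42 (0.0198), and CFLAR, an inhibitor of caspase-8, fell by 0.81 ± 0.19 (0.0244). FOSL1 lost its call without control 48 h replicate 1 (0.0833) or 2 (0.0787), and so did CFLAR (0.0989 and 0.06). CFLAR read -0.070 (0.898) without probe sets of types _x_at and _s_at and -0.31 (0.104) with array weights. NFKBIZ, a nuclear co-regulator needed for induction of IL6, rose by 0.70 ± 0.19 (0.0362). CEBPB, another activator of the IL6 gene, fell by 1.09 ± 0.28 (0.032), GCH1 fell by 1.47 ± 0.43 (0.0439) and the kinase RIPK2 fell by 0.74 ± 0.22 (0.0494). By means, FOSL1 stood at 8.36 in control cells and 8.51 with Ra at 12 h, and at 5.68 and 7.58 at 48 h. In the same order NFKBIZ stood at 12.17, 12.44, 11.72 and 12.42, and CEBPB at 12.01, 12.16, 13.59 and 12.50. The control group at 48 h was thus the lowest for FOSL1 and NFKBIZ and the highest for CEBPB. For CFLAR, GCH1 and RIPK2 the lowest mean was that of Ra at 48 h. Over the 12 arrays left out in turn, CEBPB kept its call in 7, NFKBIZ in 3, GCH1 in 3 and RIPK2 in 2. Without Ra 48 h replicate 2 the adjusted p was 0.0655 for CEBPB, and the differences of GCH1 and RIPK2 shrank to -0.91 (0.0695) and -0.47 (0.0568). RIPK2 read -0.51 (0.269) without probe sets of types _x_at and _s_at. Of the 17 receptors and adaptors 0 passed, and of the 3 chemokines 0.

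**Figure D5:**
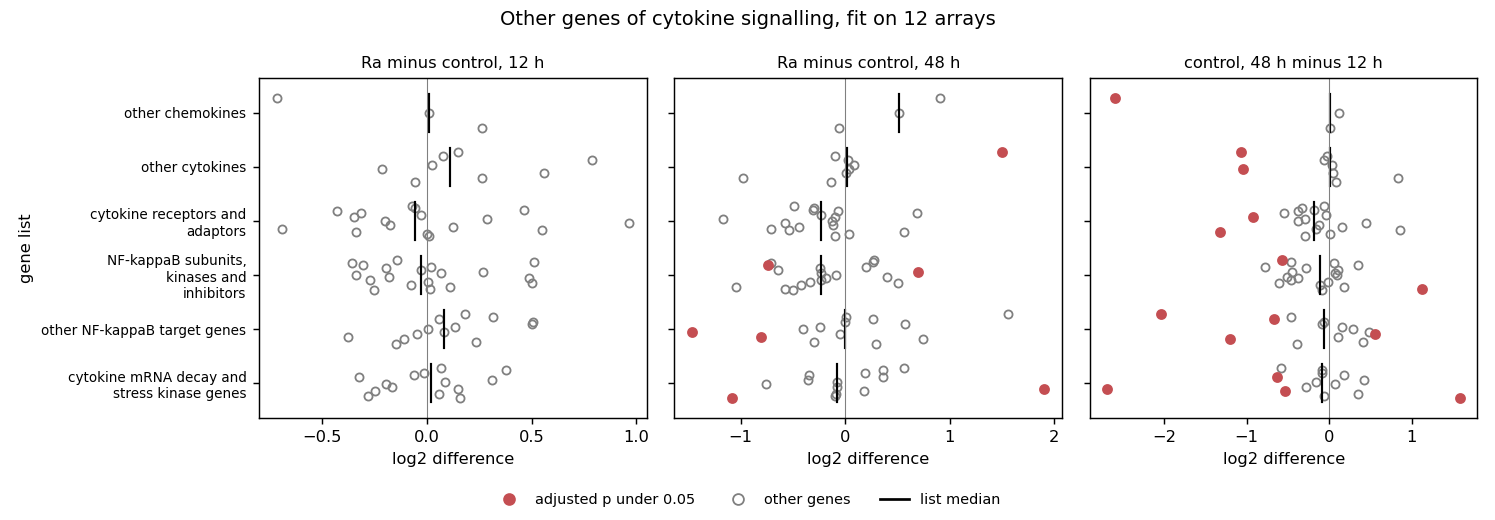
Log2 difference (x axis) of the 74 tested genes of 6 lists (y axis) for Ra against control at 12 h and 48 h and for control cells at 48 h against 12 h, in limma's fit on 12 arrays. A point is a gene, filled red where its adjusted p is under 0.05 (0, 7 and 15 genes), and a black bar is the list's median.

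Between 12 h and 48 h in control cells 12 of the 74 fell and 3 rose in limma's fit of 12 arrays, or 20.3% in all, against 19.5% of all genes, of which 10.1% fell and 9.37% rose. By list, 1 of 3 other chemokines, 2 of 8 cytokines and 2 of 17 receptors and adaptors fell, 1 of 19 NF-kappaB genes rose and 1 fell, 1 of 13 NF-kappaB targets rose and 3 fell, and 1 of 14 mRNA decay and stress kinase genes rose and 3 fell. CXCL5, a neutrophil attractant of the same family as CXCL8, fell by 2.59 ± 0.51 log2 units (limma adjusted p = 0.00635), from 9.51 to 6.92. FOSL1 fell by 2.68 ± 0.42 (0.00274), CD83, a surface protein of activated immune cells, from a mean of 7.01 to 5.81 (0.00969), and CEBPB rose by 1.58 ± 0.28 (0.00463). These 4 kept their calls without any 1 of the 12 arrays. The adhesion molecule VCAM1 fell from a mean of 6.49 at 12 h to one under the limit for detection at 48 h (4.45; adjusted p = 0.0294), kept in 6 of 12. The decoy receptor IL1R2 likewise fell from 5.70 to 4.38 (0.0112; 0.0534 if control 12 h replicate 2 is left out). Differences of this pair are taken against a level under that limit, and both genes passed the filter on low values through other groups. IL32 fell by 1.04 ± 0.26 (0.0157; 0.0774 if control 12 h replicate 3 is left out, 0.0662 if control 48 h replicate 2 is). TNFSF10 (-1.07 ± 0.29) and MYD88 (-0.92 ± 0.26) fell and the deubiquitinase CYLD rose (1.12 ± 0.30), each kept in 7 of 12. TNFSF10 missed the threshold in the fit of 6 arrays (0.0597) and read -0.69 (0.0827) without control 48 h replicate 1. Smaller differences were called for TNFAIP2 (-0.67), MAPKAPK2 (-0.63), TRAF3 (-0.57), ELAVL1 (-0.53) and EFNA1 (0.56). These kept their calls in 4, 7, 2, 3 and 3 of 12, in that order. In the fit of 6 arrays 5 of the 74 rose and 18 fell, or 31.1%, against 33.2% of all genes. With Ra at 48 h CXCL5 stood at 7.84 and at 12 h at 8.80, and neither difference from control passed (limma adjusted p = 0.228 at 48 h).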

How the data were processed

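The deposited values are log2 expression, computed by the authors with GCRMA according to the submitters' processing notes. GCRMA corrects background by probe sequence, normalizes arrays together and summarises each probe set. No version or filter was stated. Members, gene lists and tests were chosen with earlier results of these data known. Probe sets with 1 symbol (41097 of 54675) that reached 5 log2 units on at least 3 arrays were kept, and the one with the highest mean stood for its gene (10050 genes). Limma 3.58.1 in R 4.3.3 fitted 4 group means over 12 arrays (8 residual degrees of freedom) with a trend of variance on intensity, and p-values were adjusted over all genes (Benjamini-Hochberg, 0.05). The code was tested on simulated data. Text names all members, up to 4 called genes per list with the largest differences, and the 3 genes nearest to each of the 3 members with the widest range of group means. Same-numbered arrays correlated at 12 h as given in the text, and at 48 h with 0.301, -0.219 and 0.097, so pairs were taken at 12 h alone. Alternatives were other filters, probe set choices, normalizations, moderation, array weights, fits on 6 arrays, replicate blocks, a 2-fold minimum and leaving out each array. Plots used matplotlib 3.10.9.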

Additional observations from a re-analysis of the deposited data

How the results depend on the processing

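Of the 6 tested members, 1 passed at 48 h (LIF) after quantile normalization, after centring arrays on their median and with array weights. There 30%, 28.5% and 51.8% of all genes passed. Between the times in control cells 2 passed (IL6 and LIF) under the same 3 settings, where 36.9%, 35.4% and 61% of all genes passed. For the difference between the effects of Ra, 1 passed with array weights (LIF), as did 44.4% of all genes. At 12 h 2 passed (CXCL2 and IL6) with the replicate block on 6 arrays, as did 23.4% of all genes. That setting was added after the data were seen. Leaving out 1 array at a time gave 0 to 1 members called at 48 h and 0 to 1 between the times in control cells, and 0 in the other comparisons. No other call on a member changed with a replicate block. The causes were not tested.

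Directions turned in 49 values of members, and none of the values that turned passed the test. With the mean of all probe sets CXCL8 read -0.15 for the difference between the effects and -0.053 between the times with Ra. After quantile normalization CXCL3 read 0.13 for the difference between the effects and LIF 0.043 between the times with Ra. After centring, CXCL8 read 0.090 at 48 h and -0.020 between the times in control cells, CXCL3 0.12 for the difference between the effects and LIF 0.063 between the times with Ra. With array weights CXCL3 read 0.32 at 48 h, 0.57 for the difference between the effects and -0.016 between the times in control cells, CXCL2 0.20 for the difference between the effects and 0.093 between the times with Ra, CCL20 0.31 between the times in control cells, and LIF 0.10 between the times with Ra.

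Without 1 array, ranges that cross 0 were -0.42 to 0.075 for CXCL3 at 12 h, -0.44 to 0.27 for CXCL8 and -0.56 to 0.51 for IL6 at 48 h, and for the difference between the effects -0.27 to 0.45 (CXCL8), -0.66 to 0.26 (CXCL2) and -0.40 to 0.10 (CXCL3). Between the times in control cells they were -0.25 to 0.23 (CXCL8), -0.37 to 0.013 (CXCL2) and -0.36 to 0.20 (CCL20), and with Ra -0.27 to 0.45 (CXCL8), -0.78 to 0.14 (CXCL2) and -0.18 to 0.32 (CXCL3). In fits of 1 time's arrays, added after the data were seen, IL6 at 48 h turned to -0.037, -0.44 and -0.56 without Ra replicate 1, Ra replicate 3 and control replicate 1, and CXCL8 to 0.27 and 0.090 without Ra replicate 2 and control replicate 2, and CXCL3 at 12 h turned to 0.075 without Ra replicate 2.

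Without probe sets of types _x_at and _s_at there was no value for CXCL8 or CXCL2, and a filter at 7 log2 units left out CXCL3. The count of all genes called at 12 h was 3, and 0 to 219 without 1 array. At 48 h it was 1262, and 45 to 2725. The spread at 48 h enters the 12 h tests of the fit on 12 arrays, and the fit on 6 arrays called 1366 genes at 12 h and 0 at 48 h.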
